A study of Glycine max with 6 samples.

Results

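The central part of the soybean (Glycine max) chromosomes, from 40% to 60% of their length, is described here by the binding sites that 2 proteins had in it. The sites are peaks, that is, stretches of DNA recovered more often than the local background in chromatin immunoprecipitation with sequencing (ChIP-seq). A peak counted as central if its summit, the position of highest signal, lay within these limits on chromosomes 1 to 20 without chromosome 13. The length of a chromosome was the largest peak end found on it in any list. By this rule 9082 of the 213988 peaks in all lists were central, and 188291 lay in the rest of the same 19 chromosomes. The centre spanned 180.5 Mb and the rest 722.2 Mb.

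The peaks came from embryos at the early maturation stage, dissected from 6 to 7 mm seeds of the cultivar Williams 82. GLYMA.06G314400 was precipitated with 3 µg and GLYMA.13G317000 with 2 µg of an antibody raised against a peptide of the protein. Each protein had 2 biological replicates with 1 peak list each, and the 2 input samples, chromatin without precipitation, are not analysed here. GLYMA.06G314400 had 2652 central peaks in replicate 1 and 2293 in replicate 2, and GLYMA.13G317000 had 2432 and 1705. The number of reads behind the lists is unknown, so a missing peak does not show missing binding. Genes at these positions and the DNA sequence are not analysed here.

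Soybean chromosomes carry most of their genes in the distal arms. The pericentromere, the wide zone around the centromere, is poor in genes, rich in transposable elements and satellite repeats, and recombines little. Proteins that bind DNA at particular sites are mostly found in open chromatin, much of it close to genes. No map of centromeres was used here, so the name pericentromeric rests on the usual position of this zone near mid-chromosome. With the peaks of all 4 lists merged into loci wherever they overlapped, the emptiest 5% of the chromosome lay in the centre on 11 of 19 chromosomes. On the other 8 it lay outside the limits but between 25% and 70% of the length. The limits thus held the emptiest stretch of most chromosomes but not of all.

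Binding sites were sparse in the centre with both proteins and in every list. GLYMA.06G314400 had 14.7 and 12.7 central peaks per Mb in replicates 1 and 2, against 74.1 and 65.0 in the rest. GLYMA.13G317000 had 13.5 and 9.44 central peaks per Mb, against 70.8 and 50.9 in the rest. The density of the centre was 0.198 and 0.195 times that of the rest with GLYMA.06G314400, and 0.190 and 0.186 times with GLYMA.13G317000. The centre held 20% of the length but 4.72% and 4.66% of the GLYMA.06G314400 peaks on the 19 chromosomes, and 4.54% and 4.43% of the GLYMA.13G317000 peaks.

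The lower density held on each of the 19 chromosomes. Over the chromosomes the centre had 14.0 ± 5.78 peaks per Mb and the rest 70.4 ± 11.4 with GLYMA.06G314400, while GLYMA.13G317000 had 11.7 ± 4.67 in the centre and 61.6 ± 10.8 in the rest (mean of the replicate lists, SD over 19 chromosomes). The median log2 ratio of centre over rest was −2.38 for GLYMA.06G314400 (98.1% interval −2.80 to −2.08) and −2.39 for GLYMA.13G317000 (−2.84 to −2.15). An exact two-sided sign test over chromosomes gave an adjusted p of 1.62e-05 for each protein. The rest includes the dense chromosome ends. Against the flanks alone, from 20% to 40% and from 60% to 80%, the median log2 ratio was nearer to even. It was −1.45 for GLYMA.06G314400 and −1.43 for GLYMA.13G317000, with the centre lower on 19 of 19 chromosomes for each. Here and below, p-values are adjusted by Benjamini-Hochberg over 17 results, and intervals are those of the median difference over chromosomes. Chromosomes of the same libraries are not biological replicates, so these tests show only how regular a difference is along the genome. With 2 lists per protein, no exact test over lists could pass 0.05. The centre held 4.69% ± 0.0461 of the GLYMA.06G314400 peaks and 4.49% ± 0.0771 of the GLYMA.13G317000 peaks (SD, n = 2 lists each; exact permutation p = 0.333, two-sided, the smallest possible).

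**Figure D1:**
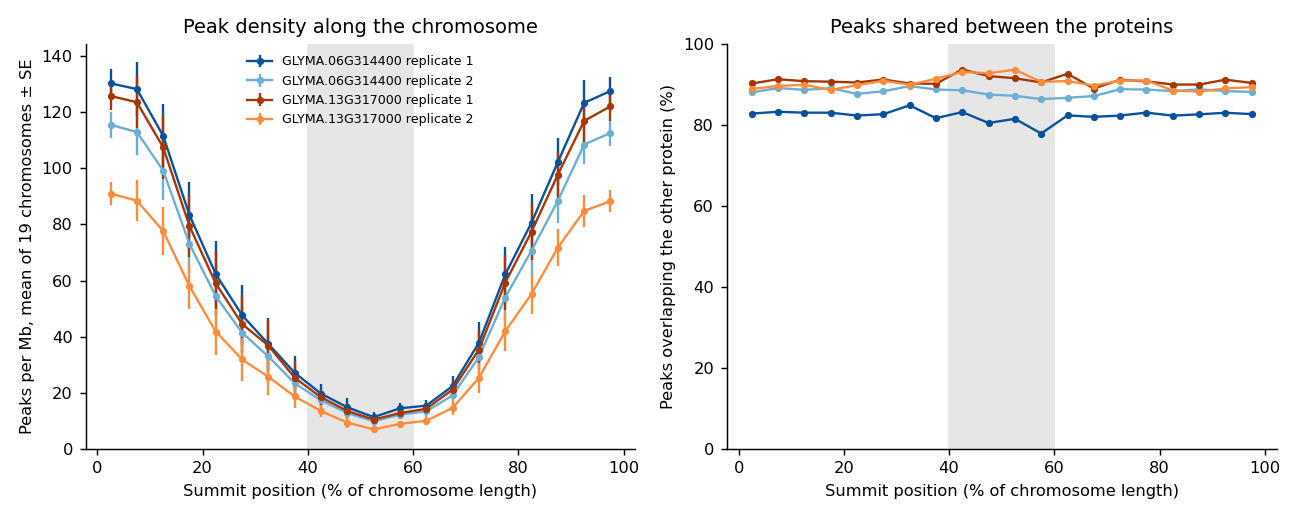
Left, peaks per Mb in steps of 5% of chromosome length for each list (mean of 19 chromosomes, bars ± SE). Right, the share of peaks that overlap a peak of the other protein in the same steps. The lowest step of each list lay in the shaded centre, with 11.3 peaks per Mb from 50% to 55% for GLYMA.06G314400 replicate 1 against 130.3 from 0% to 5%. Just outside the shading, the step from 60% to 65% was sparser than the central step from 40% to 45%, 15.4 against 19.7 in that list. In the centre the shared part stayed between 77.9% and 93.7%.

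Density was higher with every step of 5% away from the middle in all 4 lists. In the step from 50% to 55%, GLYMA.06G314400 had 11.3 and 9.81 peaks per Mb and GLYMA.13G317000 had 10.4 and 6.92, the lowest value of each list. In the first 5% of the length the densities were 130.3 and 115.5 for GLYMA.06G314400 and 125.8 and 91.0 for GLYMA.13G317000. The limits at 40% and 60% did not mark a step. In the 1% of length just inside both limits, the lists held 276 and 248 peaks of GLYMA.06G314400 and 253 and 198 of GLYMA.13G317000, against 267, 221, 246 and 188 just outside. Median fold enrichments in these bands were 6.20, 6.66, 5.86 and 5.03 inside, against 5.82, 6.92, 5.86 and 5.11 outside, in the same order of lists.

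The centres of single chromosomes differed widely among themselves. The centre of chromosome 8 was the most densely bound, with 29.2 peaks per Mb of GLYMA.06G314400 and 24.3 of GLYMA.13G317000, against 84.6 and 75.2 in its rest. The centre of chromosome 4 was the sparsest, with 5.30 and 4.58 peaks per Mb, against 63.6 and 54.8 in its rest. In loci, chromosome 4 had 70 and chromosome 8 had 342 in the centre. Both proteins thus had the same densest and the same sparsest central stretch.

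Part of the centre was empty over long distances. Of 1786 windows of 100000 bp inside the centre, 785 (43.95%) held no locus, against 1058 of 7195 windows (14.7%) in the rest. The mean was 1.68 loci per window in the centre and 8.65 in the rest, with a variance of 3.31 and 6.41 times the mean. Windows were pooled over chromosomes and positions that differ in density, most of all in the rest. These ratios therefore do not show in which part loci were more clustered. The longest stretches of the centre without a peak in any list were 1189 kb on chromosome 7 (21702969 to 22891495), 1054 kb on chromosome 4 (27557367 to 28611052) and 1045 kb on chromosome 9 (25611750 to 26656347). In all, 46 stretches on 17 chromosomes exceeded 500 kb, and they summed to 31.2 Mb. Such stretches were not counted in the rest, which also had long gaps. In every list the longest distance between neighbouring summits on the same side of the limits lay in the rest. For GLYMA.06G314400 replicate 1 it was 1.87e+06 bp in the rest and 1.48e+06 bp in the centre. Coordinates are those of the deposited lists (genome build not given in the sources used here). Whether reads could be placed in these stretches was not tested.

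The fullest central windows, picked for their number of loci, held fewer than the fullest window of the rest. The window on chromosome 8 from 21800001 to 21900000 held 17 loci, of which 8 had a peak in all 4 lists. It held 10 and 11 peaks of GLYMA.06G314400 and 13 and 13 of GLYMA.13G317000 in replicates 1 and 2. A second window on chromosome 8, from 23100001 to 23200000, held 15 loci. A window on chromosome 3 from 18500001 to 18600000 held 14 loci, 11 of them with a peak in all 4 lists, and 3 further windows on chromosomes 8, 9 and 19 also held 14. The maximum in the rest was 35 loci per window.

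Medians of fold enrichment were close in centre and rest. Fold enrichment is the authors' ratio of signal at the summit to local background, and it was compared only within lists. Its median in GLYMA.06G314400 replicate 1 was 5.76 in the centre (quartiles 3.88 and 11.1) and 5.97 in the rest (3.89 and 11.3), and in replicate 2 it was 7.03 and 7.17. In GLYMA.13G317000 it was 5.61 in the centre and 5.53 in the rest of replicate 1, and 5.44 and 5.40 in replicate 2. The median difference between centre and rest over chromosomes was −0.12 for GLYMA.06G314400 (interval −0.77 to 0.26; lower in the centre on 11 of 19) and −0.01 for GLYMA.13G317000 (−0.21 to 0.18; lower on 11 of 19), with an exact sign test giving an adjusted p of 0.734 for each.

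Strong peaks were found in the centre too. The strongest of 10 equal groups of a list by fold enrichment took in 9.73% and 9.29% of the central GLYMA.06G314400 peaks. It took in 10.2% and 9.68% of the central GLYMA.13G317000 peaks. Among the 100 strongest peaks of a list on the 19 chromosomes, 12 and 6 were central in the GLYMA.06G314400 lists, while the GLYMA.13G317000 lists had 6 and 7 such peaks. Of all peaks, 4.72% and 4.66% were central in the GLYMA.06G314400 lists, and 4.54% and 4.43% in the GLYMA.13G317000 lists. No test was made on these small counts.

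**Figure D2:**
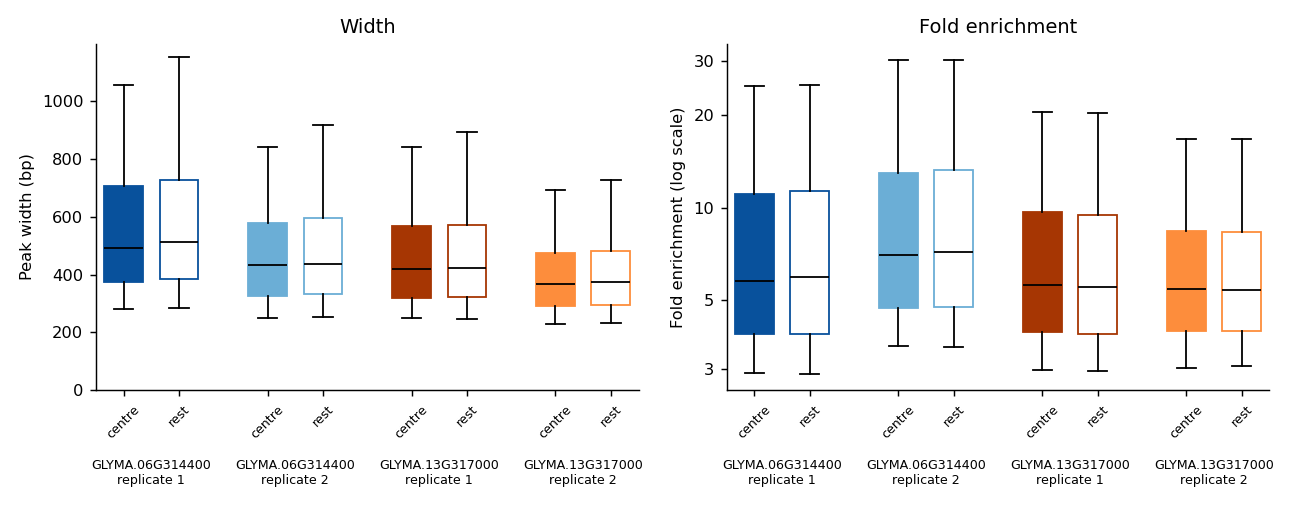
Peak width (bp) and fold enrichment (log scale) in each list, central peaks (filled) left of the rest (open). Boxes give the quartiles with the median, whiskers the 5th and 95th percentiles. Centre and rest of a list have nearly the same medians, for example 433 and 436 bp in GLYMA.06G314400 replicate 2.

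Widths of central peaks were close to those of the rest. The median width was 492 bp in the centre and 512 bp in the rest of GLYMA.06G314400 replicate 1, and 433 and 436 bp in replicate 2. For GLYMA.13G317000 it was 421 and 422 bp in replicate 1, and 369 and 373 bp in replicate 2. All 4 lists thus had the lower median in the centre, by 1 to 20 bp. Over chromosomes the median difference was −15.5 bp for GLYMA.06G314400 (interval −22.0 to 2.00; exact sign test, adjusted p = 0.237, lower on 13 of 19) and −5.75 bp for GLYMA.13G317000 (−16.0 to 0.25; exact sign test, adjusted p = 0.1201, lower on 14 of 19), neither past the threshold. Without replicate 2 of GLYMA.06G314400, the difference of that protein was −17.5 bp and passed (exact sign test, adjusted p = 0.0363). With peaks compared within groups of like fold enrichment, the differences were −5.01 bp and −0.66 bp.

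The centre of chromosome 6, with 129 loci, had the highest value in several measures. Its peaks had the highest median width, 553.5 bp for GLYMA.06G314400 and 462.5 bp for GLYMA.13G317000, against 485 and 405.5 bp in its rest. They also had the highest median fold enrichment, 8.93 and 7.35 against 6.93 and 5.61, and the highest replicate overlap, 92.4% and 88.5% against 88.7% and 80.7%. The centre of chromosome 19 was next highest in median width (530 and 431 bp) and in median fold enrichment (8.68 and 6.60). The narrowest and weakest central peaks lay on chromosome 2 for GLYMA.06G314400 (407.25 bp and 5.32) and on chromosome 4 for GLYMA.13G317000 (350.25 bp and 4.80).

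Most central peaks recurred in the other replicate. A peak recurred if it overlapped a peak of the other list by at least 50% of the shorter. With GLYMA.06G314400, 2087 of 2652 central peaks of replicate 1 recurred (78.7%, against 80.7% in the rest and 80.6% over all 19 chromosomes). Of its replicate 2, 2156 of 2293 did so (94.0%, against 94.9% in the rest and 94.9% over all). With GLYMA.13G317000, 1584 of 2432 central peaks of replicate 1 recurred (65.1%, against 65.9% and 65.8%), and 1601 of 1705 of replicate 2 (93.9%, against 93.5% and 93.5%). The share was lower in the centre in 3 of 4 lists and higher in the replicate 2 list of GLYMA.13G317000.

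For GLYMA.06G314400 the lower recurrence passed the test, by a small margin. The median difference over chromosomes was −1.57 percentage points (interval −2.41 to −0.07), lower in the centre on 15 of 19 chromosomes (exact sign test, adjusted p = 0.0408). For GLYMA.13G317000 it was −0.31 points (interval −2.09 to 1.71; lower on 10 of 19, exact sign test, adjusted p = 1). The call for GLYMA.06G314400 was lost when peaks were matched on fold enrichment (−0.88 points, exact sign test, adjusted p = 0.470), and in each of 4 further settings. The background shares above show that the centre differed from all peaks by under 2 points in each list.

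Pairs of peaks that both replicates ranked alike were found at a similar rate. The irreproducible discovery rate (IDR), from a mixture fitted to the ranks of paired replicate peaks, was 0.01 or less for 1180 of 2086 central pairs of GLYMA.06G314400 (56.6%, against 58.7% in the rest and 58.6% over all 19 chromosomes). For GLYMA.13G317000 it was so for 662 of 1582 central pairs (41.8%, against 41.4% and 41.4%). The highest central shares lay on chromosome 19 for both proteins, 73.5% and 58.3% against 57.6% and 40.6% in its rest. The lowest lay on chromosome 2 for GLYMA.06G314400 (44.2%) and on chromosome 18 for GLYMA.13G317000 (29.0%). The median difference was −0.67 points (interval −7.89 to 0.59; lower on 13 of 19 chromosomes, exact sign test, adjusted p = 0.237) for GLYMA.06G314400 and −0.54 points (−4.37 to 4.62; lower on 10 of 19, adjusted p = 1) for GLYMA.13G317000. Matched on fold enrichment, the GLYMA.06G314400 difference was −1.84 points and passed (exact sign test, adjusted p = 0.0408). The fold enrichments of paired peaks had a Spearman rho across pairs of 0.904 in the centre and 0.905 in the rest for GLYMA.06G314400, and of 0.829 and 0.806 for GLYMA.13G317000. Peaks are not independent, so these are descriptions.

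Summit distances had medians within 1 bp of each other in centre and rest. Between the proteins they lay a median of 23 bp apart in the centre and 22 bp in the rest in replicate 1, and 22 and 21 bp in replicate 2. Between replicates the medians were 20 bp in the centre and 20 bp in the rest for GLYMA.06G314400, and 21 bp in both for GLYMA.13G317000. Distances of up to 50 bp between the proteins made up 79.5% of central pairs and 79.7% of the rest in replicate 1, and 80.2% and 80.6% in replicate 2. The median difference over chromosomes was 0.75 bp (interval −0.75 to 2.5; higher in the centre on 13 and lower on 5 of 19; exact sign test, adjusted p = 0.164).

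Most central peaks were shared between the proteins. Sharing needed an overlap of 50% of the shorter peak, or more, with any peak of the other protein, whichever replicate that peak came from. Of the GLYMA.06G314400 peaks, 2146 of 2652 were shared in replicate 1 (80.9%, against 82.8% in the rest and 82.7% over all 19 chromosomes), and 2007 of 2293 in replicate 2 (87.5%, against 88.5% and 88.5%). Of the GLYMA.13G317000 peaks, 2241 of 2432 were shared in replicate 1 (92.1%, against 90.6% and 90.7%), and 1578 of 1705 in replicate 2 (92.6%, against 89.4% and 89.6%). Both GLYMA.06G314400 lists had the lower share in the centre, and both GLYMA.13G317000 lists the higher one.

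For GLYMA.13G317000 the higher shared part passed the test but depended on the settings. The median difference was 1.38 points (interval 0.63 to 4.12; higher in the centre on 15 of 19 chromosomes, exact sign test, adjusted p = 0.0408). It was 2.14 points with peaks matched on fold enrichment (exact sign test, adjusted p = 0.0107), 1.68 points with same-numbered lists only, the replicate block (adjusted p = 0.237), and 1.34 points without GLYMA.13G317000 replicate 2 (adjusted p = 0.284). Without GLYMA.13G317000 replicate 1 it was 3.21 points, and without GLYMA.06G314400 replicate 2 it was 2.18 points. For GLYMA.06G314400 the difference was −1.88 points (interval −3.78 to 1.07; lower on 11 of 19, exact sign test, adjusted p = 0.734). Set against each other, the differences of the proteins missed the threshold (median −4.41 points, GLYMA.06G314400 minus GLYMA.13G317000, lower on 15 of 19; exact sign test, adjusted p = 0.0512 over 8 results).

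**Figure D3:**
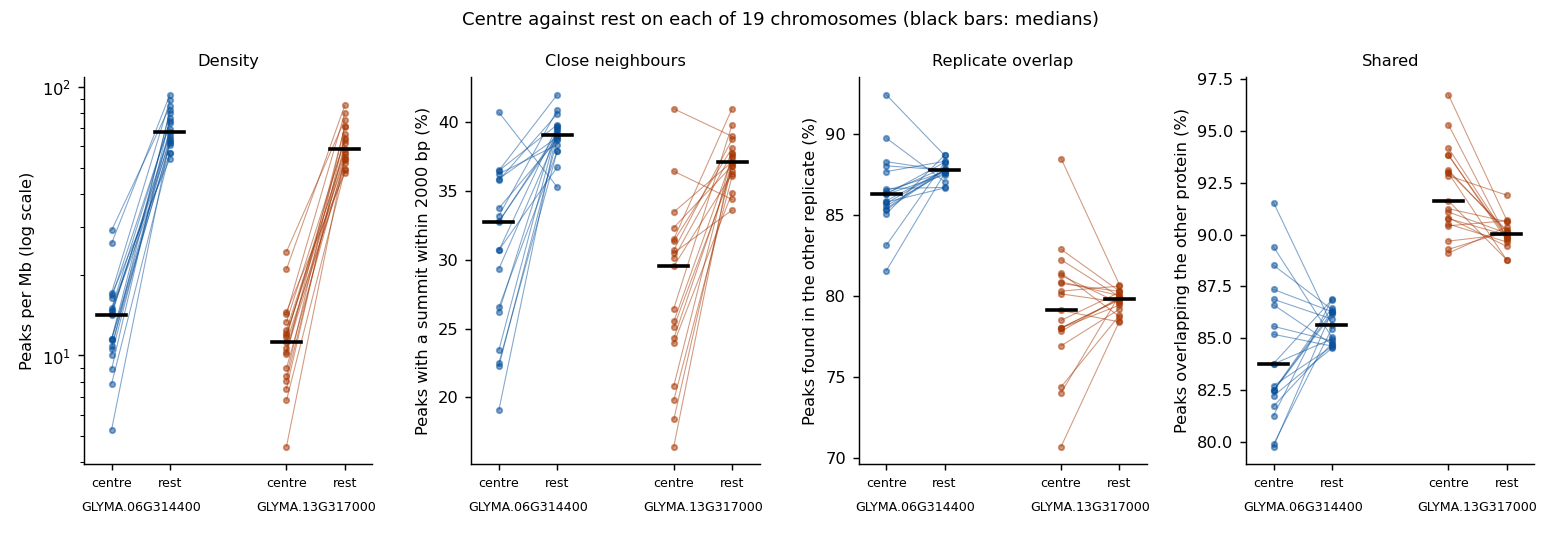
Each line joins the centre (left) and the rest (right) of 1 of 19 chromosomes, as the mean of the 2 lists of a protein; black bars are medians. Panels give peaks per Mb (log scale), peaks with another summit within 2000 bp, peaks found in the other replicate and peaks overlapping the other protein (%). Density was lower in the centre on 19 of 19 chromosomes with each protein. The share of recurring peaks was lower in the centre on 15 chromosomes with GLYMA.06G314400 and on 10 with GLYMA.13G317000. The share of shared peaks was lower on 11 with GLYMA.06G314400 and higher on 15 with GLYMA.13G317000.

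Sharing went with strength in the centre as in the rest. In the weakest of 10 groups by fold enrichment, 40.9% of central peaks and 43.8% of the rest were shared in GLYMA.06G314400 replicate 1, and 60.96% and 62.1% in replicate 2. For GLYMA.13G317000 these values were 65.8% and 64.4% in replicate 1, and 72.3% and 74.97% in replicate 2. In the strongest group, all central peaks of each list were shared (258, 213, 247 and 165 peaks), and in the rest 99.8% to 100% of peaks.

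Merged into loci, the largest class in centre and rest was that with a peak in all 4 lists. Of 3046 central loci, 1450 (47.6%, exact 95% binomial interval 45.8% to 49.4%, which covers counting error only) had a peak in all 4 lists, against 30009 of 62338 loci (48.1%) in the rest and 48.1% over all. A further 738 central loci (24.2%) held both proteins in 2 or 3 lists, against 24.1% in the rest. Peaks of GLYMA.06G314400 alone made up 591 central loci (19.4%, against 17.0% in the rest), and peaks of GLYMA.13G317000 alone 267 (8.77%, against 10.7%). The first share was higher in the centre on 15 of 19 chromosomes and the second lower on 14 of 19. Most loci of GLYMA.06G314400 alone had a peak in 1 list only, 407 in the centre and 7082 of 10615 in the rest. The same held for GLYMA.13G317000 alone, with 222 in the centre and 4876 of 6660 in the rest. These counts are given without a test.

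Loci of 1 protein that recurred in both of its replicates were few, with low fold enrichments. For GLYMA.06G314400 there were 184 in the centre (6.04% of central loci, against 5.67% in the rest and 5.68% over all). For GLYMA.13G317000 there were 45 (1.48%, against 2.86% and 2.8%). Their lower fold enrichment of both replicates had a median of 3.64 in the centre and 3.65 in the rest for GLYMA.06G314400, and of 3.31 and 3.51 for GLYMA.13G317000. It reached at most 6.53 in the centre and 8.48 in the rest for GLYMA.06G314400, and 5.32 and 8.67 for GLYMA.13G317000.

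The distance from a summit to the next one in the same list was several times longer in the centre. Its median was 16346 bp in the centre and 5161 bp in the rest for GLYMA.06G314400 replicate 1, and 20470 and 5898 bp for replicate 2. For GLYMA.13G317000 it was 18617 and 5284 bp in replicate 1, and 31469 and 7603 bp in replicate 2. Over chromosomes the median difference was 15849 bp for GLYMA.06G314400 (interval 11532 to 28197) and 20861 bp for GLYMA.13G317000 (13921 to 34759), longer in the centre on 19 of 19 chromosomes with each (exact sign test, adjusted p = 1.62e-05). Fewer peaks per Mb lie further apart on average, so the spacing result is not independent of the density result. The centre of chromosome 4 had the longest median, 78161 and 102478 bp, and that of chromosome 8 the shortest, 8956 and 12188 bp.

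Pooled over the 19 chromosomes, whose central densities differ, the median distance was a smaller part of the mean in the centre, which was not tested per chromosome. It was 0.246 and 0.269 times the mean in the centre with GLYMA.06G314400, against 0.386 and 0.387 in the rest. With GLYMA.13G317000 it was 0.258 and 0.310 times the mean, against 0.377 and 0.391. Distances over 100000 bp made up 17.9% and 20.4% of central distances with GLYMA.06G314400, against 1.70% and 1.99% in the rest. With GLYMA.13G317000 they made up 19.9% and 27.3%, against 1.84% and 2.77%. Distances of up to 2000 bp remained common in the centre, at 17.6% and 17.4% against 23.0% and 21.5% for GLYMA.06G314400, and at 18.5% and 13.2% against 24.1% and 18.4% for GLYMA.13G317000.

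**Figure D4:**
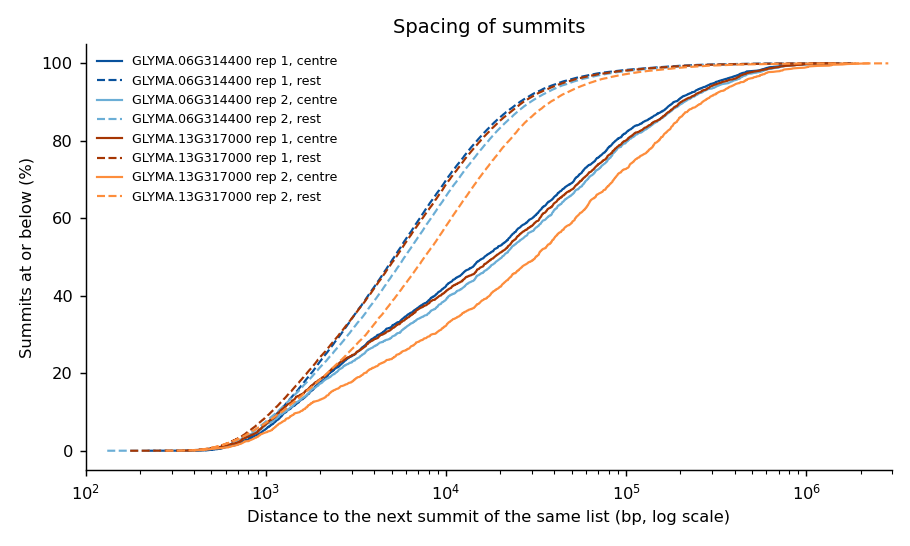
Share of summits (%) whose next summit in the same list lies at or below a given distance (bp, log scale), for the centre (solid) and the rest (dashed) of each list. The central curves run to the right of the rest at long distances, with medians of 16346 to 31469 bp against 5161 to 7603 bp, and approach it below 2000 bp.

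Fewer central peaks had a close neighbour, a difference that missed the threshold and changed sign at like local density. Another summit of the same list within 2000 bp was found for 31.8% and 31.0% of central GLYMA.06G314400 peaks, against 40.3% and 37.9% in the rest and 39.9% and 37.6% over all 19 chromosomes. For GLYMA.13G317000 this held for 32.8% and 24.0% of central peaks, against 41.8% and 32.8% in the rest and 41.3% and 32.4% over all. The median difference was −6.49 points for GLYMA.06G314400 (interval −13.5 to −4.82; lower on 18 of 19 chromosomes, exact sign test, adjusted p = 0.000259) and −9.50 points for GLYMA.13G317000 (−13.4 to −4.50; lower on 17 of 19, adjusted p = 0.00206). With peaks compared within 5 classes of the number of summits 2000 to 50000 bp away, an alternative chosen after seeing the data, the differences turned to 1.61 points (exact sign test, adjusted p = 0.555) and 0.74 points (adjusted p = 1). Against the flanks alone, from 20% to 40% and from 60% to 80%, they were −2.43 and −4.70 points, neither past the threshold (exact sign test, adjusted p = 0.154 and 0.284).

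The direction varied between the classes. Among peaks with 0 summits 2000 to 50000 bp away, 24.0% and 23.2% of central GLYMA.06G314400 peaks still had a close neighbour, against 27.2% and 24.9% in the rest. For GLYMA.13G317000 these values were 25.8% and 21.7%, against 25.03% and 18.8%. Among peaks with 6 to 9 such summits the share was lower in the centre in all 4 lists, for example 38.2% against 38.7% in GLYMA.06G314400 replicate 1 and 26.5% against 32.9% in GLYMA.13G317000 replicate 2. With 10 or more it was 28.4% and 31.4% in the centre against 43.0% and 41.6% in the rest for GLYMA.06G314400. For GLYMA.13G317000 it was 31.1% and 59.4% against 45.5% and 37.8%. That class held 1.88% to 4.37% of the central peaks of a list, against 37.8% to 64.6% of the rest. With 1 to 2 such summits the share was higher in the centre in all 4 lists, and with 3 to 5 it was higher in all but replicate 2 of GLYMA.13G317000 (23.8% against 29.1%). Peaks with 0 such summits made up 16.8% and 18.6% of central GLYMA.06G314400 peaks and 18.2% and 25.6% of central GLYMA.13G317000 peaks, against 1.47% to 2.56% of the rest over the 4 lists.

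**Figure D5:**
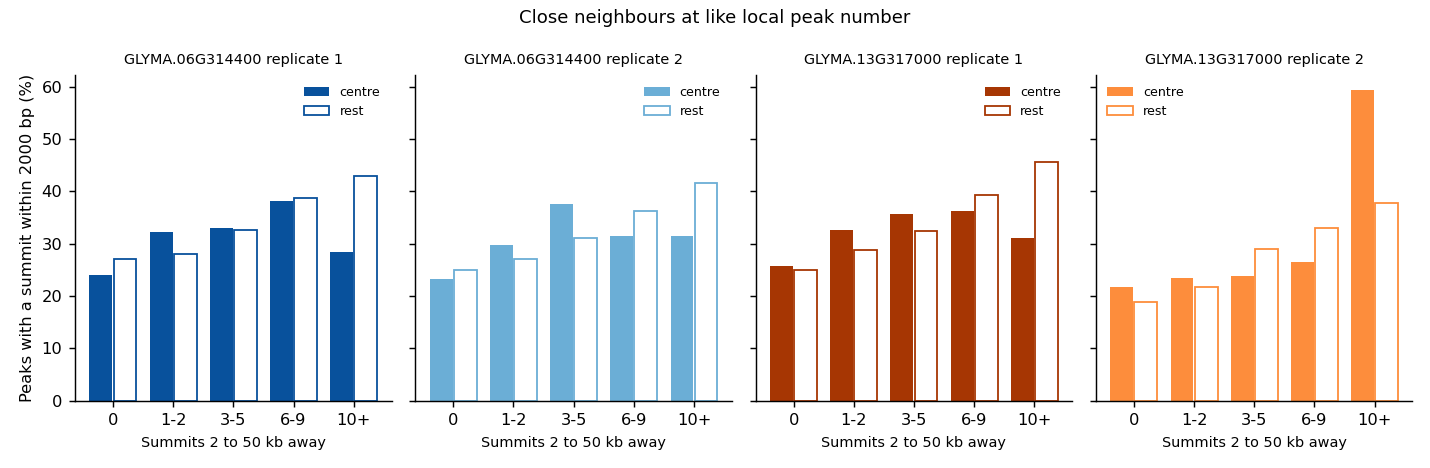
Share of peaks (%) with another summit of the same list within 2000 bp, by the number of summits 2 to 50 kb away, in the centre (filled) left of the rest (open) for each list. With 0 such summits the bars of GLYMA.06G314400 replicate 1 stand at 24.0% and 27.2%, and the class of 10 or more holds 32 to 116 central peaks per list.

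Of the central loci with a peak in all 4 lists, those with the highest fold enrichments are described here, so that their strength and the presence of both proteins follow from the choice. At chromosome 8, 21316290 to 21317520, GLYMA.06G314400 reached fold enrichments of 45.3 (replicate 1) and 70.2 (replicate 2), and GLYMA.13G317000 reached 44.8 and 42.3. By the lower value of its replicates it ranked 12 with GLYMA.06G314400 and 2 with GLYMA.13G317000 among 31459 loci with a peak in all 4 lists. The locus on chromosome 15 from 22027473 to 22029016, with 47.4 and 50.5 for GLYMA.06G314400 and 32.9 and 24.4 for GLYMA.13G317000, ranked 3 with GLYMA.06G314400. At chromosome 15, 26167090 to 26168107, GLYMA.06G314400 reached 42.4 and 67.6 and GLYMA.13G317000 reached 41.7 and 38.2, and the locus ranked 6 with GLYMA.13G317000.

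Other central loci chosen by the same value lay on 4 further chromosomes. On chromosome 19 from 27582083 to 27583244, GLYMA.06G314400 had 44.3 and 50.8 and GLYMA.13G317000 had 33.0 and 20.1. On chromosome 10 from 27235927 to 27237091 the values were 44.2 and 55.4 in GLYMA.06G314400, while GLYMA.13G317000 had 37.1 and 26.1. On chromosome 11 from 17933578 to 17934835 they were 43.6 and 58.2 in GLYMA.06G314400, while GLYMA.13G317000 had 42.0 and 37.7. On chromosome 9 from 22252422 to 22253481 they were 38.5 and 55.3 in GLYMA.06G314400, while GLYMA.13G317000 had 37.4 and 32.7. In these 7 loci the summits of the proteins lay 2 to 49 bp apart within a replicate number.

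The highest peak of each replicate 2 list in the whole genome was central and fell in the same locus. This locus lies on chromosome 3 from 23958504 to 23959889 and was picked with its values known. GLYMA.06G314400 reached 33.8 there in replicate 1 and 82.3 in replicate 2, and GLYMA.13G317000 reached 31.0 and 54.6. The summits of the proteins lay 8 and 3 bp apart. The highest central peak of the replicate 1 lists ranked 4 of 60812 with GLYMA.06G314400 and 5 of 58036 with GLYMA.13G317000.

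Of the 7 central loci with 3 or more peaks in 1 list, the 3 widest are described here, so that their several summits follow from the choice. On chromosome 6 from 21482474 to 21486185, a locus of 3712 bp was 1 peak in GLYMA.06G314400 replicate 1 and 4 peaks in replicate 2, and 4 and 3 peaks in the replicates of GLYMA.13G317000. Its highest fold enrichments were 16.7 and 17.6 in GLYMA.06G314400, while GLYMA.13G317000 had 16.3 and 10.1. On chromosome 1, loci of 2570 bp (26610144 to 26612713) and 2434 bp (32298868 to 32301301) held 1 to 3 peaks per list. Loci over 2000 bp made up 0.328% of central loci and 0.380% of the rest, and loci with 3 or more peaks in 1 list 0.230% and 0.253%.

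The strongest central loci with 1 protein in both replicates and no peak of the other had lower fold enrichments than the shared ones above. This follows from the choice, as all central peaks in the strongest of 10 groups by fold enrichment were shared. The unshared loci of GLYMA.06G314400 were led by chromosome 6 from 23318485 to 23318981 (fold enrichments 6.53 and 7.53 in replicates 1 and 2) and chromosome 3 from 26529031 to 26529460 (6.45 and 6.97). Next came chromosome 8 from 21884622 to 21885038 (6.10 and 6.23) and chromosome 10 from 21739579 to 21740027 (6.23 and 6.03). Those of GLYMA.13G317000 were led by chromosome 19 from 27655228 to 27655572 (5.32 and 5.38) and chromosome 8 from 21882868 to 21883513 (4.94 and 5.72). Next came chromosome 11 from 15569060 to 15569674 (4.86 and 8.49) and chromosome 3 from 26565284 to 26565955 (4.75 and 8.22). The loci of either kind on chromosome 8 lay next to each other in the fullest central window.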

How the data were processed

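Per the submitters' processing notes, Bowtie 0.12.7 and MACS2 were used; the MACS2 version, genome build, control of each call and treatment of repeated or duplicate reads were not given in the sources used here. Per the labels, 1% formaldehyde, fragments of 100 to 500 bp and 15 PCR cycles were used. The authors deposited 1 narrowPeak list per ChIP sample, so replicates were not pooled. Each deposited list gives per peak a fold enrichment (a ratio), −log10 p and −log10 q values, an integer score and a summit offset. All lists ended at a q under 0.01, and 0 lists held overlapping peaks. Depth is unknown, so no depth-based interval is given.

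From these, peaks were split by summit position, and centre and rest were compared per chromosome on the mean of a protein's lists, with exact sign tests over 19 chromosomes (Python 3.11.15, scipy 1.17.1, pandas 2.3.3). Intervals are the 5th and 15th ordered differences (98.1% coverage). IDR was fitted on all pairs, ranked by −log10 p. Scripts were tested on simulated data. Members, lists and settings were chosen with earlier results of these data known. Named loci follow a rule set with the tests: per protein the 4 strongest shared and the 4 strongest unshared central loci, the 3 fullest windows, the 3 longest empty stretches, the chromosomes with the highest and lowest value of a result and the 3 widest loci with over 2 peaks in 1 list. Lists of both proteins share replicate numbers, but the labels do not say what a number marks. Peaks on chromosome 13 (15454) and on scaffolds (1161) were left out. The gene table at hand is of Glycine_max_v4.0, which cannot be matched to the peaks, so it was not used.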

Additional observations from a re-analysis of the deposited data

Results flagged for a closer look

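In 2 results the difference between centre and rest was itself different between the proteins. Each was marked because a test of that difference passed. The log2 density ratio of centre over rest was higher with GLYMA.06G314400 than with GLYMA.13G317000 by a median of 0.0704, on 16 of 19 chromosomes (exact two-sided sign test over chromosomes, adjusted p = 0.0177 over 8 results). The excess of median spacing in the centre was smaller with GLYMA.06G314400 by a median of −6523 bp, on 17 of 19 chromosomes (exact sign test, adjusted p = 0.00583). Within a replicate number, the GLYMA.13G317000 list held fewer peaks on these chromosomes than the GLYMA.06G314400 list, and the part of list length in either difference was not tested.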

How the results depend on the processing

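Over 19 results and 154 values under other settings, 127 counted as unchanged. For the 17 results tested over chromosomes, this meant the same side of the threshold and no change of sign. The 7 values of the share of peaks in the centre were judged by sign only. The 4 values of the share of central loci with a peak in all 4 lists were judged by the exact binomial interval, without a test. Of the 127 values, 2 were 0 and so had no direction, the width of GLYMA.13G317000 without its replicate 2 and the summit distance with the centre from 30% to 70%. Density and spacing kept direction and side under all settings run. The share of peaks in the centre kept its direction, while no exact permutation test of it could pass the threshold in any setting. With the centre from 45% to 55%, recurrence of GLYMA.06G314400 (−2.50 points) and sharing of GLYMA.13G317000 (2.61) missed the threshold, pairs at the IDR limit passed for GLYMA.06G314400 (−3.44) and turned, that is, changed sign, for GLYMA.13G317000 (0.30). From 30% to 70%, width of GLYMA.06G314400 passed (−15.0 bp), sharing of GLYMA.13G317000 missed (1.02), and its fold enrichment (0.0486) and IDR pairs (0.42) turned. Against the flanks alone, recurrence of GLYMA.06G314400 (−0.64), sharing of GLYMA.13G317000 (1.75) and close neighbours (−2.43 and −4.70) missed the threshold. With chromosome 13 included, recurrence of GLYMA.06G314400 (−1.39) and sharing of GLYMA.13G317000 (1.204) missed it. At a q of 1e-05 or less, fold enrichment of GLYMA.13G317000 turned (0.0114).

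With summits within 100 bp in place of overlap, recurrence of GLYMA.06G314400 missed (−1.06) and that of GLYMA.13G317000 turned (0.56), as it did with an overlap of 1 bp (0.19). Matched on fold enrichment, recurrence of GLYMA.06G314400 missed (−0.88) and its IDR pairs passed (−1.84). At an IDR of 0.05, without matching, pairs of GLYMA.06G314400 turned (0.21). Matched on local peak number, close neighbours turned (1.61 and 0.74), a setting chosen after seeing the data. With a peak required in both lists of the other protein, chosen likewise, sharing of GLYMA.13G317000 missed (0.98). Omitting single replicates gave −17.5 to −5.50 bp for width of GLYMA.06G314400 and 1.15 to 3.21 points for sharing of GLYMA.13G317000. Recurrence and IDR cannot be computed without a replicate.

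With the replicate number as a block, a peak was shared only if it overlapped a peak in the same-numbered list of the other protein. No replicate effect was modelled. Sharing of GLYMA.13G317000 was then 1.68 points and missed the threshold, while that of GLYMA.06G314400 was −0.61 points. The shift in rank of 1450 central loci from one replicate to the other had a correlation across loci of 0.466 between GLYMA.06G314400 and GLYMA.13G317000, which have 2 pairs of lists. The labels do not say that a number marks a shared harvest or batch. The causes of these changes were not tested.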

Other observations

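On chromosome 13, left out by the rule, the middle held more than its share of the length. Of the 5171 loci there, 1349 (26.1%) lay from 40% to 60%, which is 20% of the length, and its emptiest 5% began at 15%. Over the other 19 chromosomes the central share of loci ran from 2.09% on chromosome 4 to 7.79% on chromosome 8.

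The centre of chromosome 18 was sparse yet had the highest share of close neighbours with GLYMA.06G314400. It held 7.85 peaks per Mb with GLYMA.06G314400 and 6.81 with GLYMA.13G317000, and 40.7% and 36.4% of these peaks had another summit within 2000 bp, against 35.3% and 34.4% in its rest. The centre of chromosome 10, with 10.04 and 8.05 peaks per Mb, had the lowest shares, 19.1% and 16.4% against 39.5% and 37.6%.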
